A study of Mus musculus with 24 samples.

Results

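Serpina3n, Apod, Lcn2, Saa3, Hp, Lrg1, Mt1 and Mt2 encode a secreted protease inhibitor, 2 lipocalins, 3 further acute-phase proteins and 2 metallothioneins. They are 8 of the 24016 gene symbols in the deposited table, and all 8 were among the 12382 genes that passed a filter on low values. They were taken by symbol, and where a symbol had several transcripts (Apod had 3) the one with the highest mean was used. Serpina3n and Apod were chosen by their measured rise in the adductor muscle of diabetic mice. Their values in that comparison describe the choice and carry no test. The other 6 were named for what their proteins do, though with earlier results of these data known.

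Poly(A) RNA was sequenced from hindlimb muscles of C57BL/6 mice 7 days after the femoral artery of 1 leg had been tied. The adductor of the thigh remained normoxic and the gastrocnemius of the calf was ischemic. Both muscles came from control mice or mice with type 2 diabetes, which gave 4 groups of 6 libraries. All 4 groups had been operated on, so no muscle without ligation stands beside them. The labels give neither the way diabetes was produced, nor age or sex, nor a statement that each sample is a separate animal. The p-values therefore measure the spread between these samples, which may be technical. Levels are in RPKM, reads per kilobase of transcript per M (mega) reads of the library, so they can be compared between genes. These are whole-muscle samples, in which fewer cells of a type and less RNA per cell cannot be told apart.

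In the acute-phase response, inflammatory cytokines, with interleukin-6 foremost, act through STAT3, C/EBP and NF-kB factors, often together with glucocorticoids, to raise a group of secreted proteins. The liver is the main source of most of them, but fibroblasts, adipocytes, neutrophils, macrophages and muscle fibres also make some. Metallothioneins are small cysteine-rich proteins that bind zinc and copper, and their genes answer to the zinc-sensing factor MTF1 through metal response elements, as well as to glucocorticoids.

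In mouse build mm9 the transcripts lay as follows, per the deposited table. Serpina3n (NM_009252) spans 105644918 to 105652539 on the plus strand of chromosome 12. Apod (NM_007470) spans 31296278 to 31314894 on the minus strand of chromosome 16. Lcn2 (NM_008491) spans 32240157 to 32243259 on the minus strand of chromosome 2, and Saa3 (NM_011315) spans 53967368 to 53971046 on the minus strand of chromosome 7. Hp (NM_017370) spans 112099028 to 112103072 on the minus strand of chromosome 8, and Lrg1 (NM_029796) spans 56259101 to 56261369 on the minus strand of chromosome 17. Mt1 (NM_013602, 96702989 to 96704227) and Mt2 (NM_008630, 96696518 to 96697467) are neighbours on the plus strand of chromosome 8. Values were summed over the exons of each transcript, so they do not separate coding from untranslated sequence.

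Promoters are shown for Serpina3n, the picked gene with the larger diabetic rise, and for the metallothioneins, which varied together across the 24 libraries. They are RefSeq sequences of build GRCm38.p6, another build than that of the transcripts above, and run from 250 bases before to 50 bases after the annotated start. RefSeq entries were matched for 7 of the 8 genes. Capitals mark, on either strand, the metal response element core (TGCACNC or TGCGCNC) in Mt1 and Mt2, and in Serpina3n the motif TGTTCT of the glucocorticoid receptor and a motif of NF-kB. In order, they are chr12:104406458-104406757, chr8:94178839-94179138 and chr8:94172368-94172667, all on the plus strand.
Serpina3n: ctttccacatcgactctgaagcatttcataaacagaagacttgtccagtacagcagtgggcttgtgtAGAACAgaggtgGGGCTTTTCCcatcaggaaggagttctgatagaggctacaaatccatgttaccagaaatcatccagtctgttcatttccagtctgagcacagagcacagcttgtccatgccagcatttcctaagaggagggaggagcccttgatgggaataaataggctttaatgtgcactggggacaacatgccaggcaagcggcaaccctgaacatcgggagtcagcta
Mt1: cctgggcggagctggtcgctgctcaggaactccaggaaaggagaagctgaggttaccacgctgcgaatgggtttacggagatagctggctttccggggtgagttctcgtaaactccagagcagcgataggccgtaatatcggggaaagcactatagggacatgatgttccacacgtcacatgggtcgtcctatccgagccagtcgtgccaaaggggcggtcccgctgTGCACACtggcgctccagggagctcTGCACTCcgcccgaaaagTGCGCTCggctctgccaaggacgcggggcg
Mt2: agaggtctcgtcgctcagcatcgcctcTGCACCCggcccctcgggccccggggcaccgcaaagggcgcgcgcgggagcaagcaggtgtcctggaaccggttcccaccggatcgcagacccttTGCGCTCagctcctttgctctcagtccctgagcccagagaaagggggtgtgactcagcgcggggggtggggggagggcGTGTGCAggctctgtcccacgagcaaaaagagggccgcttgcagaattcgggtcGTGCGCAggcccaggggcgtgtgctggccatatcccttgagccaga

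The core of the metal response element occurred 3 times in the Mt1 promoter and 4 times in the Mt2 promoter. The Mt1 matches at positions 3 and 21 and the Mt2 match at position 5 lay after the annotated start. Of 32851 promoters of the same length, 1.97% held 3 or more matches, 0.517% held 4 or more and 25.7% held at least 1. The Serpina3n promoter held 1 match to TGTTCT, found in 19.0% of all promoters, and 1 to the NF-kB motif, found in 4.79%. The C/EBP motif TTGCNNAA, present in 10.8% of promoters, occurred once each in the Lcn2, Saa3 and Mt2 promoters. The STAT motif TTCNNNGAA, present in 8.3% of promoters, matched in none of the 7. None of the motifs searched, which also included the TATA box TATAAA (13.6% of promoters), matched in the Apod promoter. Lrg1 held only TATAAA, once, at position 12 after the annotated start. A match is a description of the letters and not evidence of binding.

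Sequence shared with other genes bears on how far reads can be assigned. Of the 31-base words of Serpina3n in the GENCODE M21 transcripts, 21.6% also occurred in other genes, most often in its neighbour Serpina3f. The figure was 5.71% for Saa3, 2.15% for Apod, 0.304% for Hp and 0 for Lcn2, Lrg1 and Mt1. It was 56.1% for Mt2, nearly all of it shared with Gm45774, where words were matched on either strand. The counting command in the file header shows no strand option, so reads of words shared on either strand could not be told apart. The values of Serpina3n and Mt2 are uncertain to that extent.

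Libraries held 7.13 to 15.6 M reads and formed 2 sets, which no label names. They were told apart by Gapdh, a glycolytic enzyme. It stood at 677 to 1757 RPKM in the first set, which held control libraries 1 to 3 and diabetic libraries 1 to 4 from each muscle, and at 0.365 to 13.7 RPKM in the second, with control 4 to 6 and diabetic 5 to 6. Of the 12382 tested genes, 22% were higher and 16.2% lower in the second set in adductor, and 16.3% and 35.6% in gastrocnemius (limma, adjusted p under 0.05). The diabetic and muscle differences of each gene are therefore also given within each set, in the text or in the plots. All 12 markers of skeletal muscle fibres averaged at least 1 RPKM in every group.

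The range across libraries differed widely among the 8 genes. Lrg1 varied 5.01-fold between its lowest and highest library (4.62 to 23.2 RPKM) and Apod 6.99-fold (12.3 to 85.9 RPKM). Lcn2 varied 36.5-fold (0.353 to 12.9 RPKM), Serpina3n 50.6-fold (1.09 to 55.3 RPKM) and Hp 68.1-fold (2.18 to 149 RPKM). Mt1 varied 253-fold, from 5.43 to 1371 RPKM, and Mt2 471-fold, from 1.90 to 894 RPKM. Saa3 was the least well counted, with 1 to 162 reads per library and 3 libraries at or under 3 reads. Lcn2 rested on 4 to 132 reads, and the other 6 genes on at least 14 in every library. The plot of RPKM by library shows these ranges.

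**Figure D1:**
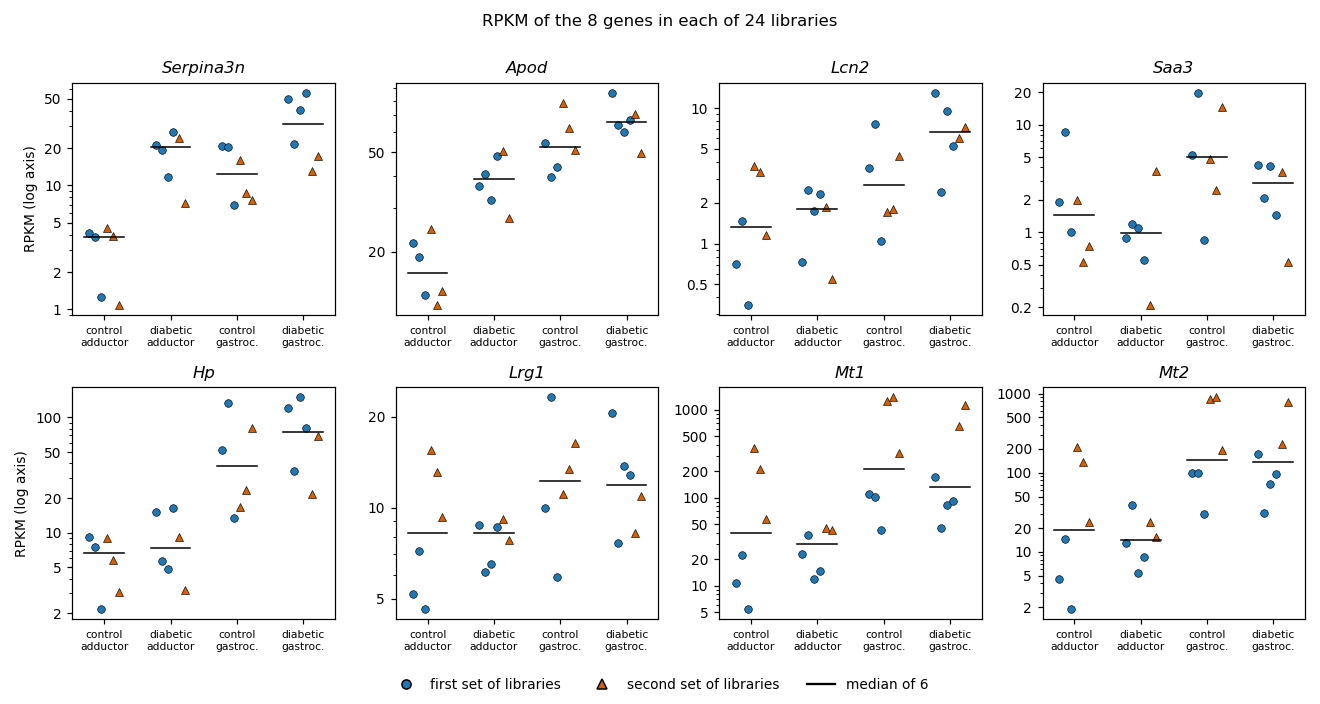
RPKM of each gene (log axis, different range in each panel) in the 24 libraries by group. Circles are libraries of the first set, triangles those of the second, and bars are medians of 6 libraries. Serpina3n and Apod in diabetic adductor lie above every control adductor library (7.23 to 27.1 against 1.09 to 4.57 RPKM, and 27.2 to 50.5 against 12.3 to 24.5 RPKM), and Mt1 is higher in the second set within every group.

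Serpina3n, a secreted inhibitor of leukocyte serine proteases, lay between 1.09 and 4.57 RPKM in control adductor, with a median of 3.85. In diabetic adductor it lay between 7.23 and 27.1 RPKM, with a median of 20.2. The groups did not overlap, and the lowest diabetic library was in the second set. The mean was 3.13 ± 1.54 RPKM in control adductor and 18.4 ± 7.55 RPKM in diabetic adductor (SD, n = 6). The log2 difference was 2.40 ± 0.41 (standard error), or 5.28-fold on the scale of log2(RPKM + 0.5). Within the first set the log2 difference was 2.57 ± 0.46 and within the second 2.07 ± 0.60.

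Apod, a lipocalin that carries arachidonic acid and other small lipids and is made by fibroblasts and Schwann cells among others, lay between 12.3 and 24.5 RPKM in control adductor, with a median of 16.5. In diabetic adductor it lay between 27.2 and 50.5 RPKM, with a median of 38.9, again without overlap. The means were 17.5 ± 5.03 and 39.3 ± 9.11 RPKM (SD, n = 6), a log2 difference of 1.16 ± 0.21. It was 1.12 ± 0.21 in the first set and 1.18 ± 0.36 in the second. Without any 1 of the 24 libraries the difference ran from 2.19 to 2.63 for Serpina3n and from 1.07 to 1.26 for Apod. Those ranges describe the libraries that picked both genes and add no support.

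These were the differences for which both genes were picked. Among all 12382 tested genes 0.0323% were called higher in diabetic adductor and 0% lower, and 0.194% were higher without overlap. Nothing further is read from that count for the picked pair.

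Summed marker levels of cell types that can express these genes overlapped between control and diabetic adductor over all libraries, but not all of them did within the second set. Fibroblast markers (10 of 10 in the table) summed to 251 to 1152 RPKM in control adductor and 292 to 558 RPKM in diabetic adductor. Markers of Schwann cells and nerve sheath (10 of 10) summed to 38.5 to 66.5 and 34.7 to 44.7 RPKM, and neutrophil markers (11 of 12) to 3.63 to 15.8 and 3.24 to 11.7 RPKM. Macrophage markers (9 of 10) summed to 28.1 to 245 and 47.7 to 100.2 RPKM. In the second set alone, the 3 control libraries had macrophage sums of 28.1 to 38.7 RPKM and the 2 diabetic ones 72.5 to 78.3 RPKM, and fibroblast sums were 251 to 338 and 365 to 390 RPKM, both higher in diabetic libraries without overlap. Schwann cell sums there were 43.3 to 66.5 and 34.7 to 42.0 RPKM, lower without overlap, and neutrophil sums overlapped. In the first set all 4 overlapped. Separation of 3 libraries from 2 happens readily, and the share of all genes that separate so was not computed. All markers found in the table for these 4 lists were above 0 in at least 1 of the 24 libraries. Their part in the difference was not tested.

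The ischemic gastrocnemius gave the comparison that did not enter the choice. The labels do not say whether its libraries came from the same mice as the adductor libraries, so it may not be independent. Serpina3n lay between 6.97 and 20.9 RPKM in control gastrocnemius (median 12.3) and between 13.0 and 55.3 RPKM in diabetic gastrocnemius (median 31.2). The 3 highest libraries, at 55.3, 49.5 and 40.8 RPKM, were all diabetic and of the first set, but the groups overlapped. The means were 13.4 ± 6.51 and 32.9 ± 17.9 RPKM (SD, n = 6), a log2 difference of 1.20 ± 0.41 that did not pass the test (limma, adjusted p = 0.999). Within the first set it was 1.42 ± 0.46 and within the second 0.53 ± 0.60, and with a term for the set it was 1.05 ± 0.38 (adjusted p = 0.843, and 0.717 to 1 over the alternatives).

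Apod lay between 39.9 and 78.4 RPKM in control and between 49.7 and 85.9 RPKM in diabetic gastrocnemius. The groups overlapped, with means of 54.9 ± 14.0 and 66.4 ± 12.1 RPKM (SD, n = 6) and a log2 difference of 0.29 ± 0.21 (limma, adjusted p = 0.999). It was 0.59 ± 0.21 in the first set and -0.08 ± 0.36 in the second. In the gastrocnemius 1 of the 12382 genes (0.00808%) was called in either direction, 156 had an unadjusted p under 0.05, and none of the 8 genes was called. A missed threshold does not show that the mouse groups were alike.

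The diabetic effect on Serpina3n was smaller by 1.20 ± 0.58 (log2) in gastrocnemius than in adductor, and that on Apod by 0.87 ± 0.29. The values were -1.15 ± 0.64 and -0.53 ± 0.30 in the first set and -1.54 ± 0.85 and -1.25 ± 0.51 in the second. They share the adductor libraries that picked the genes and carry no test. Across the 4 groups the mean level of Serpina3n ran from control adductor (3.13 RPKM) through control gastrocnemius (13.4) and diabetic adductor (18.4) to diabetic gastrocnemius (32.9). Control adductor lay below every library of the other groups, and each of the remaining neighbours in that order overlapped. Apod ran from control adductor (17.5 RPKM) through diabetic adductor (39.3) and control gastrocnemius (54.9) to diabetic gastrocnemius (66.4), with control adductor again below all other libraries and the later neighbours overlapping.

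**Figure D2:**
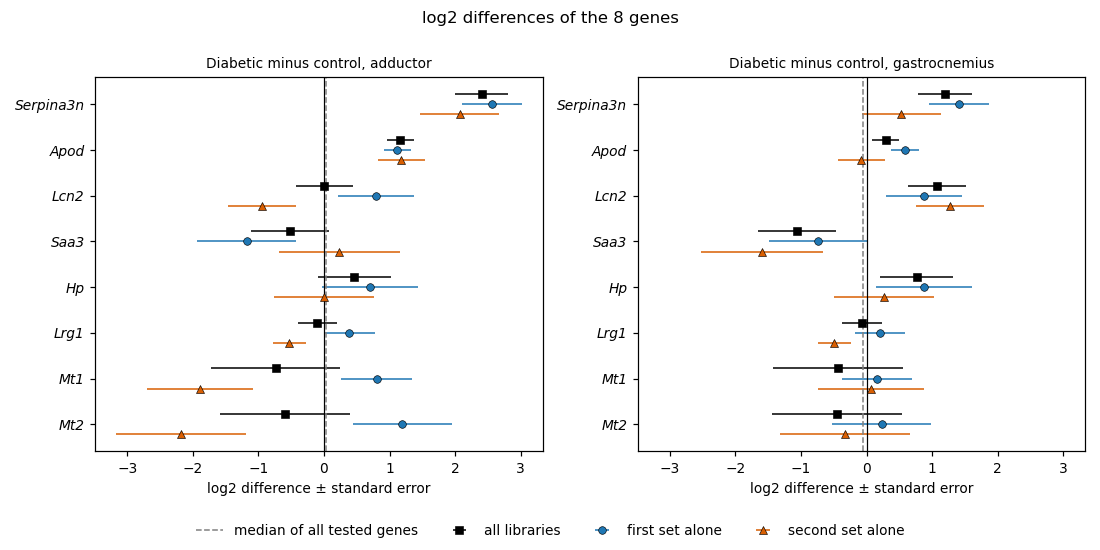
Diabetic minus control log2 difference (± standard error) of each gene in adductor (left) and gastrocnemius (right), from all libraries (squares), the first set alone (circles) and the second set alone (triangles). The dashed line is the median of all tested genes. Serpina3n and Apod were picked on the adductor values shown. Mt1 and Mt2 in adductor lie on opposite sides of 0 in the first and second sets (0.80 and -1.89, and 1.19 and -2.18).

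None of the acute-phase genes differed between diabetic and control adductor by the test. Hp encodes haptoglobin, which binds free hemoglobin. It lay between 2.18 and 9.15 RPKM in control (median 6.62) and between 3.19 and 16.3 RPKM in diabetic adductor (median 7.39), a log2 difference of 0.46 ± 0.55 (limma, adjusted p = 1). Its 2 highest adductor libraries, at 16.3 and 15.1 RPKM, were diabetic and of the first set.

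Lcn2 encodes lipocalin 2, which binds bacterial iron-carrying siderophores and is stored in neutrophil granules. It lay between 0.353 and 3.72 RPKM in control and between 0.544 and 2.48 RPKM in diabetic adductor, a log2 difference of 0.01 ± 0.44 (limma, adjusted p = 1). The sets pointed in opposite directions, with 0.79 ± 0.58 in the first and -0.94 ± 0.52 in the second, and the difference between sets was not tested.

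Saa3 encodes the serum amyloid A protein made outside the liver. It lay between 0.526 and 8.57 RPKM in control and between 0.212 and 3.72 RPKM in diabetic adductor, a log2 difference of -0.52 ± 0.59. Lrg1, a secreted leucine-rich glycoprotein that modifies TGF-beta signalling in endothelium, lay between 4.62 and 15.6 RPKM in control and between 6.15 and 9.15 RPKM in diabetic adductor (log2 difference -0.10 ± 0.30). Both overlapped and had a limma adjusted p of 1. The narrow diabetic range of Lrg1 lay inside the control range, whose 3 highest libraries were of the second set.

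In gastrocnemius Lcn2 had the larger difference of these 4 genes in the diabetic direction. Its libraries lay between 1.04 and 7.67 RPKM in control (median 2.72) and between 2.42 and 12.9 RPKM in diabetic muscle (median 6.62), with overlap. The means were 3.38 ± 2.46 and 7.22 ± 3.63 RPKM (SD, n = 6), and the log2 difference of 1.07 ± 0.44 did not pass the test (limma, adjusted p = 0.999). It was 0.88 ± 0.58 in the first set and 1.28 ± 0.52 in the second.

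Saa3 pointed the other way in gastrocnemius, with a range of 0.839 to 19.6 RPKM among control libraries and 0.529 to 4.25 RPKM among diabetic ones. Its 2 highest values, 19.6 and 14.7 RPKM, were control libraries, 1 in each set. The log2 difference was -1.05 ± 0.59 (limma, adjusted p = 0.999). Hp differed by 0.76 ± 0.55 and Lrg1 by -0.07 ± 0.30, both uncalled. In the difference of the diabetic effect between muscles 0% of all genes were called by limma, with 154 at an unadjusted p under 0.05 and 0 calls by voom on recovered reads. Lcn2 had the highest value there among the 4 genes, 1.07 ± 0.62 (limma, adjusted p = 1), with 0.09 ± 0.82 in the first set and 2.22 ± 0.73 in the second (adjusted p = 1 and 0.433).

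The muscles differed far more than the mouse groups. Every adductor library was normoxic and every gastrocnemius library ischemic, so muscle type and ischemia cannot be told apart in these differences. As deposited, the median of all 12382 genes was 0.66 higher (log2) in gastrocnemius than in adductor in control mice and 0.55 higher in diabetic mice. Of all genes 54.4% were called higher and 8.7% lower in control mice (6730 and 1077 genes), and 48.1% and 8.83% in diabetic mice (5958 and 1093 genes). With median-of-ratios scaling the medians were -0.05 and -0.07, and the calls were 3306 higher and 3315 lower in control mice (27.3% and 27.4% of 12096 genes) and 3183 and 3309 in diabetic mice (26.3% and 27.4%). Quantile normalization gave 3158 and 3503, and 3035 and 3562. A muscle difference of a single gene is therefore read against that shift. Of the 6 genes besides Serpina3n and Apod, 4 were called higher in gastrocnemius of control mice (Saa3, Hp, Mt1 and Mt2). In diabetic mice 4 were called higher (Lcn2, Hp, Mt1 and Mt2). Shares of that size are near the background as deposited and are no result about the group of genes.

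Hp was higher in gastrocnemius than in adductor in both mouse groups. In control mice it lay between 2.18 and 9.15 RPKM in adductor and between 13.4 and 132 RPKM in gastrocnemius, and in diabetic mice between 3.19 and 16.3 and between 21.7 and 149 RPKM. Neither pair of groups overlapped, where 33.3% of all genes were higher without overlap in control and 29% in diabetic mice. The log2 difference was 2.70 ± 0.55 in control mice (limma, adjusted p = 0.000181) and 3.0 ± 0.55 in diabetic mice (adjusted p = 7e-05). Median-of-ratios scaling gave 1.94 (adjusted p = 0.00221) and 2.34 (adjusted p = 0.000414). Over all alternatives other than leaving out a library, each set alone included, the adjusted p ran from 8.79e-06 to 0.0115 in control and from 2.57e-06 to 0.0247 in diabetic mice, and both calls held without any 1 library.

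In diabetic mice Lcn2 was higher in gastrocnemius, at a mean of 7.22 ± 3.63 against 1.61 ± 0.80 RPKM in adductor (SD, n = 6). The log2 difference was 1.83 ± 0.44 (limma, adjusted p = 0.00106). The highest adductor library, at 2.48 RPKM, just exceeded the lowest gastrocnemius library, at 2.42 RPKM, and the other 5 gastrocnemius libraries lay above 5 RPKM. The difference was 1.65 ± 0.54 in the first set and 2.18 ± 0.57 in the second, and 1.26 with median-of-ratios scaling (0.0159, where the alternatives gave an adjusted p of 0.000197 to 0.0365). In control mice it was 0.76 ± 0.44 and uncalled (adjusted p = 0.135), with 1.56 ± 0.62 in the first set, where it was called (adjusted p = 0.0409), -0.04 ± 0.46 in the second and -0.09 under quantile normalization. Between the mouse groups this muscle difference differed by the uncalled 1.07 ± 0.62 given above.

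Saa3 was called higher in gastrocnemius of control mice, at 7.93 ± 7.46 against 2.46 ± 3.06 RPKM (SD, n = 6), with overlap and a log2 difference of 1.41 ± 0.59 (limma, adjusted p = 0.0421). That call held at a pseudocount of 1, with summed transcripts and with the replicate block, and was lost under the other 9 alternatives that gave a value. Among these were terms for the set (adjusted p = 0.122), median-of-ratios scaling (0.274), the first set alone (0.422) and the second alone (0.0531). It was also lost without any 1 of 9 libraries, with adjusted p from 0.0525 to 0.129. Those 9 were control adductor 1, 3, 4, 5 and 6 and control gastrocnemius 1, 2, 4 and 6. Over the alternatives other than leaving out a library it ran from 0.0107 to 0.578. In diabetic mice Saa3 differed by 0.88 ± 0.59 (adjusted p = 0.215).

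Lrg1 was close to the shift of all genes, at 0.53 ± 0.30 in control mice (limma, adjusted p = 0.127) and 0.56 ± 0.30 in diabetic mice (adjusted p = 0.115). With the replicate number as a block the adjusted p was 0.0448 and 0.0375, and with terms for the set 0.0205 and 0.0219, where 66.1% and 60.5% of all genes were called higher. It was also called in control mice without control adductor 4 (0.0452) or control gastrocnemius 3 (0.0311). With median-of-ratios scaling the value turned to -0.24 in control and -0.09 in diabetic mice.

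For the picked genes the muscle differences share the adductor libraries and are a description. In control mice gastrocnemius exceeded adductor by 1.95 ± 0.41 (log2) for Serpina3n and 1.63 ± 0.21 for Apod, without overlap. In diabetic mice the differences were 0.75 ± 0.41 and 0.76 ± 0.21, with overlap. With median-of-ratios scaling they were 1.22 and 0.84 in control mice and 0.08 and 0.08 in diabetic mice, and with set terms as well the value of Apod in diabetic mice was -0.10.

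**Figure D3:**
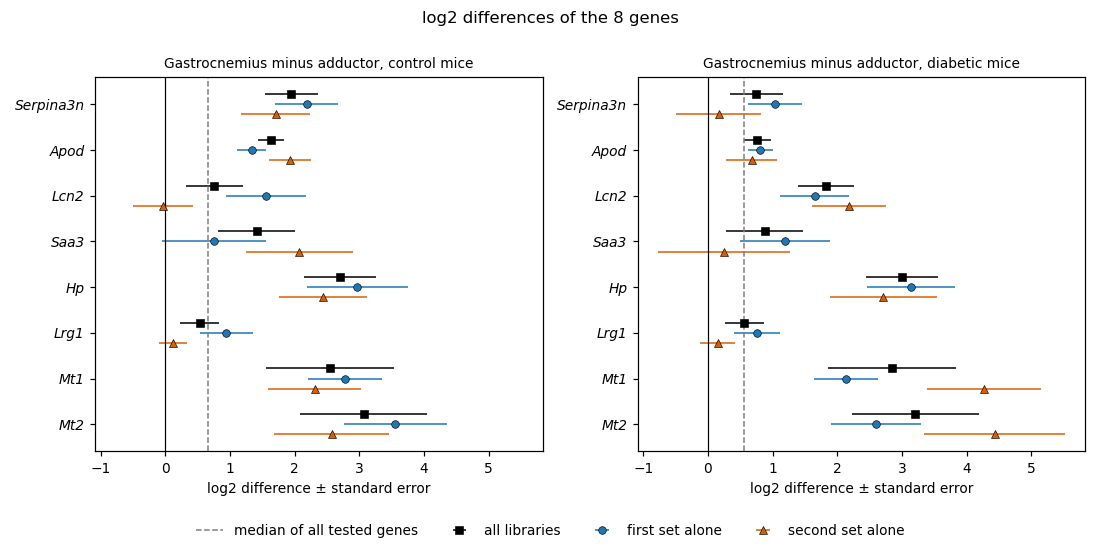
Gastrocnemius minus adductor log2 difference (± standard error) of each gene in control (left) and diabetic mice (right), from all libraries (squares), the first set alone (circles) and the second set alone (triangles), as deposited. The dashed line is the median of all tested genes, 0.66 in control and 0.55 in diabetic mice. Hp, Mt1 and Mt2 lie above that line in both panels and in both sets, and Lrg1 lies close to it.

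Macrophage and fibroblast marker sums were higher in gastrocnemius without overlap, while neutrophil and adipocyte sums overlapped between the muscles. These sums are as deposited, where 33.3% of all genes were higher without overlap in control and 29% in diabetic mice. Neutrophil markers (11 of 12 in the table, all above 0 in at least 1 library) summed to 3.63 to 15.8 RPKM in control adductor and 3.89 to 53.3 RPKM in control gastrocnemius, and to 3.24 to 11.7 and 6.00 to 20.7 RPKM in diabetic mice. Of the 6 tested, 2 were called higher in each mouse group, and 2 and 1 with median-of-ratios scaling, against 54.4% and 48.1%, and 27.3% and 26.3%, of all genes. Macrophage markers (9 of 10) summed to 28.1 to 245 and 394 to 1534 RPKM in control mice and to 47.7 to 100.2 and 378 to 1336 RPKM in diabetic mice. Adipocyte markers (10 of 10) summed to 316 to 811 and 315 to 650 RPKM in control mice and to 260 to 962 and 471 to 881 RPKM in diabetic mice. Fibroblast markers summed to 251 to 1152 and 2139 to 7045 RPKM in control mice and to 292 to 558 and 1726 to 5825 RPKM in diabetic mice. Of 9 tested macrophage markers 8 were called higher in each mouse group, and 8 and 7 with median-of-ratios scaling, with 1 lower in each. All 10 fibroblast markers were called higher in each, and 7 and 6 with that scaling. Of 10 adipocyte markers 1 was called higher in each and 3 lower in control mice. With that scaling 0 were higher and 5 and 4 lower, where 27.4% of all genes were lower in each. The part of these markers in the muscle differences of Hp, Lcn2 and Saa3 was not tested.

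Most hepatocyte transcripts were nearly absent. Alb, which encodes albumin, had 0 to 8 reads in every library, at most 0.274 RPKM. The liver forms of serum amyloid A were close to absent too, with 0 to 6 reads of Saa1 and 0 to 2 reads of Saa2 in a library. Of the 8 hepatocyte markers 1 averaged at least 1 RPKM in each group. Sums of all 8 spanned 6.43 to 18.7 (control) against 1.38 to 7.48 RPKM (diabetic) for adductor. For gastrocnemius they spanned 1.59 to 9.18 against 0.835 to 4.08 RPKM, both with overlap. The 1 tested marker differed by log2 -1.63 (diabetic minus control) for adductor and -0.65 for gastrocnemius, uncalled. Gastrocnemius minus adductor it was -1.87 in control (called) and -0.89 in diabetic mice (uncalled). Set terms left neither called, and median-of-ratios scaling called both lower.

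The metallothioneins set themselves apart from the other 6 genes by the set of libraries. Mt1 lay between 5.43 and 22.4 RPKM in the 3 first-set libraries of control adductor and between 57.2 and 368 RPKM in the 3 of the second set. In diabetic adductor the ranges were 11.8 to 37.4 and 42.7 to 44.9 RPKM. In control gastrocnemius they were 43.0 to 109 and 318 to 1371 RPKM, and in diabetic gastrocnemius 45.4 to 171 and 644 to 1132 RPKM. In all 4 groups every second-set library thus exceeded every first-set library for Mt1, and for Mt2 in all but diabetic adductor.

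Second minus first set, the log2 difference of Mt1 was 2.57 ± 0.54 in adductor (limma, adjusted p = 0.000641) and 3.33 ± 0.54 in gastrocnemius (adjusted p = 3.13e-05). That of Mt2 was 2.37 ± 0.71 (adjusted p = 0.0105) and 2.72 ± 0.71 (adjusted p = 0.00292). By size Mt1 ranked 196 and 143 of the 12382 genes, and Mt2 ranked 229 in each muscle. The other 6 genes were not called, with differences from -0.90 for Serpina3n in gastrocnemius to 0.66 for Lrg1 in adductor.

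The diabetic comparison of the metallothioneins also depended on the libraries used. In adductor the log2 difference of Mt1 was -0.74 ± 0.99 over all libraries (limma, adjusted p = 1), 0.80 ± 0.54 in the first set and -1.89 ± 0.81 in the second. That of Mt2 was -0.59 ± 0.99, 1.19 ± 0.75 and -2.18 ± 0.99. In the second set the 3 control libraries of Mt1 lay above both diabetic libraries, a separation that happens readily with so few libraries. In the first set the groups overlapped. None of these values was called, and the difference between the sets was not tested. With set terms the values were -0.31 ± 0.54 for Mt1 and -0.20 ± 0.70 for Mt2.

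In gastrocnemius Mt1 lay between 43.0 and 1371 RPKM in control (median 213) and between 45.4 and 1132 RPKM in diabetic libraries (median 132). The log2 difference was -0.43 ± 0.99 for Mt1 and -0.45 ± 0.99 for Mt2 (limma, adjusted p = 0.999 for both). With set terms they were 0.12 ± 0.54 and 0.00 ± 0.70.

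Both metallothioneins were called higher in gastrocnemius than in adductor. In control mice Mt1 had medians of 39.8 RPKM in adductor and 213 RPKM in gastrocnemius, with overlap, and a log2 difference of 2.54 ± 0.99 (limma, adjusted p = 0.0284). Mt2 had medians of 19.1 and 146 RPKM and a difference of 3.07 ± 0.99 (adjusted p = 0.00941). In diabetic mice Mt1 lay between 11.8 and 44.9 RPKM in adductor and between 45.4 and 1132 RPKM in gastrocnemius, without overlap but by a margin under 1 RPKM. Its difference was 2.85 ± 0.99 (adjusted p = 0.0168), and that of Mt2, with overlap, was 3.21 ± 0.99 (adjusted p = 0.00778).

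The call of Mt2 in diabetic mice held under every alternative run, and the other 3 were lost with median-of-ratios scaling but held under quantile normalization. With median-of-ratios scaling the values were 1.75 and 2.29 in control mice (adjusted p = 0.162 and 0.0637) and 2.17 and 2.54 in diabetic mice (0.0824 and 0.0412), for Mt1 and Mt2. With set terms as well, an alternative added after the data were seen, the adjusted p was 0.112 and 0.0491 in control and 0.0106 and 0.0111 in diabetic mice. Over all alternatives it ran from 0.00168 to 0.162 for Mt1 and from 0.000414 to 0.0637 for Mt2 in control mice, and from 0.000521 to 0.0824 and from 0.000292 to 0.0412 in diabetic mice. The control call of Mt1 was also lost without control adductor 1, 2 or 3 or control gastrocnemius 4 or 5 (adjusted p from 0.0551 to 0.0872). Its diabetic call was lost without diabetic gastrocnemius 6 (0.0501). Within each set alone, both genes were called higher in both mouse groups, with differences from 2.13 to 4.44.

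Mt1 and Mt2 moved in parallel across libraries. Mt1 divided by Mt2 (RPKM) lay between 0.945 and 2.86 with a median of 1.53 over 24 libraries, while Mt1 itself varied 253-fold and Mt2 471-fold. By group the mean ratio was 2.07 ± 0.56 in control adductor, 1.87 ± 0.61 in diabetic adductor, 1.36 ± 0.25 in control gastrocnemius and 1.46 ± 0.68 in diabetic gastrocnemius (SD, n = 6), and these ranges overlapped. The plot of Mt1 against Mt2 shows the order of the libraries along 1 line.

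**Figure D4:**
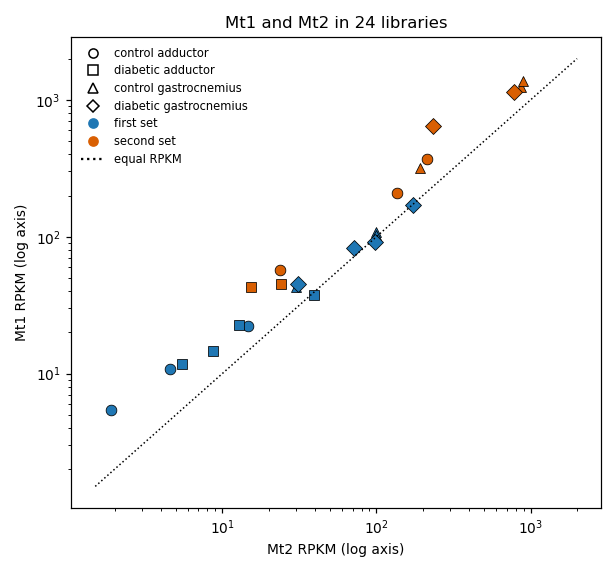
Mt1 against Mt2 RPKM (both log axes) in 24 libraries. Marker shape gives the group and colour the set, and the dotted line marks equal RPKM. The libraries lie along a single band from 1.90 and 5.43 RPKM to 894 and 1371 RPKM, with the second set towards the upper end within each muscle. Control adductor 6 and diabetic adductor 5 and 6 of the second set, at 15.3 to 23.9 RPKM of Mt2, lie below every first-set gastrocnemius library (30.0 to 173 RPKM).

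How the genes varied together was described from each library's deviation from the mean of its group and set, on the log2(RPKM + 0.5) scale, over 24 libraries and 28 pairs of genes. The deviations share library depth and tissue composition, so no p is given. Mt1 and Mt2 had a Pearson's r of 0.98 (Spearman's rho 0.98), and 0.97 without the 2 libraries farthest from the median of Mt1. Among the acute-phase genes r was 0.85 for Hp and Lrg1 (rho 0.84, and 0.78 without 2 libraries), 0.81 for Lcn2 and Lrg1 (rho 0.76, and 0.71) and 0.75 for Lcn2 and Hp (rho 0.70, and 0.65).

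Serpina3n varied with the metallothioneins, at r of 0.71 with Mt1 (rho 0.61, and 0.62 without 2 libraries) and 0.74 with Mt2 (rho 0.60, and 0.66). With Apod it had r of 0.63 (rho 0.67, and 0.66). Its r with acute-phase genes was of like size, at 0.66 with Hp (rho 0.51, and 0.58) and 0.64 with Lcn2 (rho 0.53, and 0.52). With Lrg1 it was 0.60 (rho 0.49, and 0.48), but with Saa3 only 0.13. Apod had little in common with the acute-phase genes, at r of 0.18 with Hp, 0.12 with Lrg1 and -0.02 with Saa3. Saa3 with Hp had r of 0.40, which fell to 0.13 without 2 libraries and so rests on them. Against summed neutrophil markers r was 0.79 for Lrg1, 0.74 for Lcn2, 0.72 for Hp, 0.69 for Serpina3n and 0.27 for Apod. Other marker sums gave values of like size, such as 0.75 for Lcn2 and 0.65 for Serpina3n with macrophage markers, 0.72 for Hp with fibroblast markers and -0.68 for Lrg1 with muscle fibre markers.

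**Figure D5:**
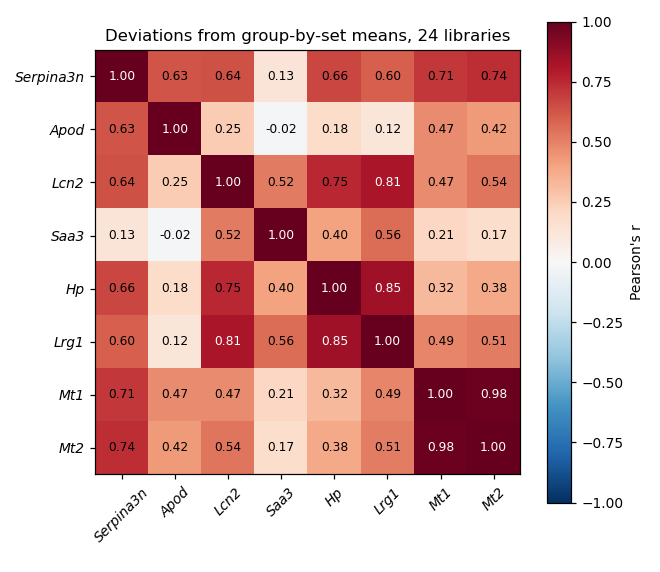
Pearson's r between the deviations of each pair of genes from their group-by-set means over 24 libraries (colour from -1 to 1, value in each cell). Mt1 and Mt2 form the closest pair (0.98), Hp, Lcn2 and Lrg1 lie between 0.75 and 0.85 with each other, and Apod is low with Hp, Lrg1 and Saa3 (0.18, 0.12 and -0.02).

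By the same measure the tested genes most like each member, outside the 8, were as follows. For Serpina3n they were B3gnt2 (r = 0.90), Ifnar2 (0.90) and Phlda1 (0.89), and for Apod they were Mustn1 (0.80), Crispld2 (0.78) and D330023K18Rik (0.73). For Hp they were Atat1 (0.90), Prr5 (0.89) and Ddah1 (0.89), for Lcn2 Gpx8 (0.88), Nsg1 (0.88) and Mfap5 (0.88), and for Lrg1 Fkbp11 (0.89), Rab38 (0.88) and Fkbp7 (0.87). Saa3 was followed by Lppr3 (0.82), 2700062C07Rik (0.80) and Scimp (0.79). Mt1 and Mt2 shared Sox18 (0.88 and 0.86) and Alkbh4 (0.87 and 0.83), and Grap (0.86) followed for Mt1 while Sh3bp2 (0.87) led for Mt2. These are given as a description.

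Other genes of the same pathways did not pass the test in either diabetic comparison. None was called among 7 tested acute-phase genes of 24 listed and 8 serpins of 21. The same held for 4 of 8 genes of the lipocalin list, the Lcn2 receptor included, and 13 of 16 of metallothionein and zinc handling. It also held for 17 of 21 genes of IL-6 and STAT3 signalling, 22 of 23 glucocorticoid-induced genes and 10 of 13 NF-kB targets. The median log2 differences of these lists in adductor ran from -0.12 (lipocalins) to 0.17 (NF-kB), against 0.04 for all tested genes. In gastrocnemius they ran from -0.30 (serpins) to 0.17 (lipocalins), against -0.06. The sets differed, with medians in adductor from -0.42 (acute phase) to 0.29 (glucocorticoid) in the first and from -0.21 (glucocorticoid) to 0.43 (acute phase) in the second. In gastrocnemius they ran from -0.14 to 0.11 in the first set and from -0.40 to 0.15 in the second. Rbp4, the retinol carrier of the lipocalin family, averaged 3.56 ± 1.63 and 1.72 ± 0.89 RPKM (SD, n = 6) in control and diabetic adductor, a log2 difference of -0.83 ± 0.32 (limma, adjusted p = 1).

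Between the muscles, the counts of pathway genes are read against the shares of all genes called higher, 54.4% in control and 48.1% in diabetic mice as deposited and 27.3% and 26.3% with median-of-ratios scaling, and lower, 8.7% and 8.83%, and 27.4% in each. Of the acute-phase list 3 of 7 were called higher in gastrocnemius in both mouse groups, namely Serping1 and Cfb of the complement system and the iron carrier Trf, and with median-of-ratios scaling 2 were, with 1 lower in control mice. That is below or near the share of all genes and no result about the list. Serping1 averaged 36.5 ± 19.6 RPKM in control adductor and 97.8 ± 31.2 RPKM in control gastrocnemius (SD, n = 6). Its log2 difference was 1.51 ± 0.31 (limma, adjusted p = 0.000167). Of 8 serpins 6 were called higher in control and 5 in diabetic mice, and 5 in each with median-of-ratios scaling, with 1 lower in control mice. Serpinh1, a collagen chaperone, differed by 3.33 ± 0.35 (log2) in control mice.

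Of 17 genes of IL-6 and STAT3 signalling 11 were called higher and 1 lower in control mice, and 10 and 1 in diabetic mice. With median-of-ratios scaling the counts were 8 and 3, and 9 and 4. The counts as deposited are near the share of all genes called higher, 54.4% in control and 48.1% in diabetic mice. With median-of-ratios scaling that share was 27.3% and 26.3%. Stat3 itself was higher by 1.32 ± 0.17 in control and 1.22 ± 0.17 in diabetic mice (limma, adjusted p = 6.26e-07 and 2.09e-06). Of 10 NF-kB targets 9 and 6 were called higher and none lower, or 5 and 4 with median-of-ratios scaling, among them the adhesion molecules Vcam1 (2.81 ± 0.28 in control mice) and Icam1 (1.91 ± 0.21).

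Glucocorticoid-induced genes were divided in direction. Of 22 tested, 10 had a positive log2 difference in control and 11 in diabetic mice. Among them 3 were called higher and 6 lower in control mice and 2 and 5 in diabetic mice, with median-of-ratios scaling 2 and 12, and 2 and 8, and with set terms 5 and 6, and 4 and 6. Their median was -0.19 in control mice and -0.04 in diabetic mice, against 0.66 and 0.55 for all tested genes. In control mice it was 0.24 in the first set and -0.69 in the second, against 0.77 and 0.56, and in diabetic mice 0.02 in each, against 0.68 and 0.32. Klf15 and Klf9, transcription factors induced by glucocorticoids, were lower by log2 differences of -1.71 ± 0.34 and -1.19 ± 0.25 in control mice. Cdkn1a, which many other signals also raise, was higher there by 3.80 ± 0.49, and Angptl4 by 2.69 ± 0.53. Of 13 genes of zinc handling 11 and 9 were called higher and 1 lower in each mouse group. With median-of-ratios scaling 6 were higher in each and 3 and 2 lower of 14 tested. Over all genes, 54.4% and 48.1% were called higher and 8.7% and 8.83% lower. With that scaling the shares were 27.3% and 26.3% higher and 27.4% lower in each. Slc39a7, a zinc transporter of the secretory pathway, was higher by 1.47 ± 0.22 in control mice. The medians of the serpin, IL-6 and STAT3, NF-kB and zinc lists were above that of all genes in both sets and both mouse groups, from 0.95 to 1.95 in control and from 0.78 to 1.88 in diabetic mice. Those of the acute-phase list were 0.37 and 0.18 in the first and second set of control mice and 1.10 and 0.21 in diabetic mice.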

How the data were processed

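Poly(A) RNA of 24 muscle libraries was analysed from the authors' deposited RPKM table. Per the file headers, the authors computed RPKM with HOMER over the exons of RefSeq transcripts of mm9, and TopHat is named in the submitters' processing notes. Strand and the handling of reads matching several places are not given in the sources used here. Reads recovered from RPKM, transcript length and library total were whole within 0.01 for 99.97% of values above 0. The members and gene lists were chosen with earlier results of these data known.

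The transcript with the highest mean was kept per symbol, and a gene was tested if 6 or more libraries reached 1 RPKM. Values of log2(RPKM + 0.5) were fitted in limma 3.58.1 (R 4.3.3) with 4 group means over all 24 libraries and an intensity trend. Benjamini-Hochberg adjustment ran over all tested genes within each of 5 contrasts, and genes were called at an adjusted p of 0.05. A fold on this scale understates changes of low genes. A floor of 3 reads for Saa3 corresponded to 0.362 to 0.794 RPKM, which covers counting error only. The sets of libraries were divided at 100 RPKM of Gapdh. List genes were named by smallest p among called genes (up to 4 a list) or else by highest mean RPKM. Genes most alike were the 3 with the highest r.

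On data simulated for 12382 genes, limma recovered 61 and 93 of 100 genes changed by a log2 of 1 and 2 in the adductor contrast, 53 and 87 in gastrocnemius, 25 and 78 for the difference of effects, 51 and 95 between control muscles and 64 and 97 between diabetic muscles. Unchanged genes called numbered 3 to 7. The simulated noise was independent between genes and libraries, without sets or pairs of libraries, so recovery in the measured data may differ. Same-numbered adductor and gastrocnemius libraries of a mouse group deviated together over genes, with r from 0.25 to 0.74 in 12 pairs (-0.09 to 0.63 within sets). The labels do not say that a number marks 1 animal. Alternatives were the pseudocount, the filter, scaling, voom on recovered reads, summed transcripts, set terms, each set alone, the replicate block and leaving out each library.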

Additional observations from a re-analysis of the deposited data

Results flagged for a closer look

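In 32 combinations of gene and group, 3 held a library far from the other 5 by Dixon's criterion for 6 values, which chance meets in about 1 of 20. Saa3 stood at 8.57 RPKM in control adductor 2, with the next library of the group at 2.00 RPKM. Saa3 stood at 3.72 RPKM in diabetic adductor 6, with the next at 1.20 RPKM. Mt2 stood at 775 RPKM in diabetic gastrocnemius 6, with the next at 232 RPKM. Control adductor 2 belonged to the first set of libraries and the other two to the second.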

How the results depend on the processing

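Calls over all genes were few between mouse groups and moved with the processing. Of 4 in adductor, the first set alone gave 1, the second 14, and set terms with median-of-ratios scaling 8. Against 1 in gastrocnemius there were 2 at a pseudocount of 1, 4 with no filter, 2 under quantile normalization, 0 with set terms, 0 in the first set, 27 in the second and 2 with median-of-ratios scaling and set terms. The difference of effects had 0 calls, and 1 in the second set. With a stricter filter, which tested fewer genes, the muscle calls were 4962 in control and 4501 in diabetic mice, from 7807 and 7051. Leaving out 1 library gave 1 to 4 calls in adductor, 0 to 3 in gastrocnemius, 0 to 0 for the difference, and 7233 to 8011 and 6531 to 7242 between muscles. The replicate block left 4 and 1 calls between mouse groups and changed no other call of the 8 genes than that of Lrg1 between muscles.

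Uncalled values changed sign as follows, and the cause was not tested. In the first set alone the log2 difference in adductor was 0.39 for Lrg1, 0.80 for Mt1 and 1.19 for Mt2, in gastrocnemius 0.20, 0.16 and 0.23, and the difference of effects was 0.45 for Saa3, -0.18 for Lrg1, -0.64 for Mt1 and -0.97 for Mt2. In the second set alone it was -0.94 for Lcn2, 0.24 for Saa3 and -0.0033 for Hp in adductor, -0.079 for Apod and 0.065 for Mt1 in gastrocnemius, and -0.041 for Lcn2 between control muscles. With set terms it was 0.0099 for Lrg1 in adductor, 0.12 for Mt1 and 0.0022 for Mt2 in gastrocnemius, and -0.092 for Lrg1 in the difference of effects. With set terms and median-of-ratios scaling it was 0.028 for Lrg1, 0.24 for Mt1 and 0.12 for Mt2 in gastrocnemius, -0.013 for Lrg1 between control muscles and -0.10 for Apod between diabetic muscles. With that scaling alone it was -0.025 for Lcn2 in adductor and -0.24 and -0.092 for Lrg1 between control and diabetic muscles. Quantile normalization gave -0.086 for Lcn2 and -0.082 for Lrg1 between control muscles, and a pseudocount of 1 gave -0.015 for Lcn2 in adductor.

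Without 1 library the adductor values ran from -0.23 to 0.23 for Lcn2, from -0.26 to 0.072 for Lrg1 and from -1.24 to 0.058 for Mt2. In gastrocnemius they ran from -0.27 to 0.11 for Lrg1 and from -0.95 to 0.054 for Mt1. The difference of effects ran from -0.17 to 0.21 for Lrg1, from -0.31 to 0.88 for Mt1 and from -0.51 to 0.79 for Mt2. Depth limits Saa3 and Lcn2 most.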

Other observations

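The neighbours of Serpina3n in its gene cluster were present at far lower levels. Serpina3m averaged 0.0662 ± 0.0704 RPKM in control adductor, 0.659 ± 0.453 RPKM in diabetic adductor, and 0.227 ± 0.217 and 1.55 ± 1.27 RPKM in control and diabetic gastrocnemius (SD, n = 6), with 0 to 74 reads in a library. Serpina3f averaged 0.0114 ± 0.0280 and 0.313 ± 0.211 RPKM in adductor, and in gastrocnemius 0.238 ± 0.194 and 0.727 ± 0.608 RPKM. Serpina3g, by contrast, averaged 0.218 RPKM in adductor of both mouse groups, and 1.52 ± 0.90 and 2.11 ± 1.34 RPKM in control and diabetic gastrocnemius. These 3 genes were chosen after their values were seen. Of the 31-base words of Serpina3m 35.0% occur in other genes, most often in Serpina3k (24.5%). For Serpina3f the figure is 27.4%, most often in Serpina3g (15.5%). Serpina3n shares most with Serpina3f, at 5.90% of its own words. Reads of words shared between Serpina3n and a neighbour could not be told apart, and their part was not tested.

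Mt3, the metallothionein best known from brain, averaged 3.27 ± 3.20 and 1.97 ± 0.91 RPKM in control and diabetic adductor, and in gastrocnemius 13.2 ± 9.24 and 9.73 ± 5.53 RPKM (SD, n = 6), and shares no 31-base word with another gene. Slc22a17, the receptor of lipocalin 2, averaged 0.580 ± 0.351 and 0.536 ± 0.231 RPKM in adductor, and in gastrocnemius 4.47 ± 2.28 and 4.40 ± 1.64 RPKM. It was higher in gastrocnemius by a log2 difference of 2.12 ± 0.29 in control and 2.19 ± 0.29 in diabetic mice (limma, adjusted p = 1.72e-06 and 1.49e-06). Ptgds, the lipocalin that makes prostaglandin D, had at most 3 reads in any adductor library and averaged 3.50 ± 1.47 RPKM in control and 5.65 ± 3.77 RPKM in diabetic gastrocnemius.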
